A study of Mus musculus with 4 samples.

Results

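The genes described here are the aryl hydrocarbon receptor Ahr, its partner Arnt and 5 genes known as targets of the pair: Ahrr, Cyp1a1, Cyp1b1, Tiparp and Aldh3a1. They were taken by symbol, and all 7 were present among the 24169 genes of the deposited table. RNA was profiled in C8-D1A, an established mouse astrocyte line, in 2 libraries kept for 24 h in 1 mM MBP and in 2 untreated libraries. Most of the astrocyte markers read here were low in all 4 libraries, as given below. Exposure of mothers to DBP is the subject named in the title of the series. Dibutyl phthalate softens plastics and is broken down in the body mainly to monobutyl phthalate. The labels give the agent only as MBP and name no vehicle for the untreated libraries. All 4 libraries are of the same line, and the labels do not say whether they came from separate cultures, so p-values measure the spread between these libraries, which may be technical.

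The aryl hydrocarbon receptor is a ligand-activated transcription factor of the bHLH-PAS family. Without ligand it is held in the cytosol by HSP90 and its co-chaperones. Dioxins, polycyclic hydrocarbons and tryptophan metabolites bind it, and it then enters the nucleus, pairs with ARNT and binds the xenobiotic response element, whose core is GCGTG. Its best known targets are the cytochrome P450 genes of family 1, which oxidize polycyclic hydrocarbons and other foreign compounds. Ahrr and Tiparp are targets whose products restrain the receptor. In mouse astrocytes the receptor is known for limiting inflammation of the central nervous system.

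The stretches before the starts of these genes are shown because GCGTG is the known core of the element that the receptor and ARNT bind. RefSeq promoters (GRCm38.p6) were found for 5 of the 7 genes, Arnt, Ahrr, Cyp1a1, Cyp1b1 and Tiparp, and not for Ahr or Aldh3a1. The core GCGTG was searched on both strands in the 250 bases before each annotated start, and its letters (CACGC where it lies on the other strand) are in capitals. Each line runs 5′ to 3′ on the gene's strand, from 40 bases before the first match to 40 bases after the last, cut at the start of the gene.
Cyp1a1, chr9:57697519-57697603, plus strand: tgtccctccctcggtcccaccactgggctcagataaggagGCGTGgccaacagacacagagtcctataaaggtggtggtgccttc
Cyp1b1, chr17:79715093-79715177, minus strand: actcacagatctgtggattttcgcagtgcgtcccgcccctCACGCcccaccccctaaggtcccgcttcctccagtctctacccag
Ahrr, chr13:74292332-74292478, minus strand: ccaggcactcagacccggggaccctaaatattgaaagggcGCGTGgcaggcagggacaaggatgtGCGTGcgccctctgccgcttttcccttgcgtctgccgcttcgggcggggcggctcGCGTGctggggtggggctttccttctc
Tiparp, chr3:65528237-65528321, plus strand: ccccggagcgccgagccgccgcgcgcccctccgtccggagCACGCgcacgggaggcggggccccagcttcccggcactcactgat
Arnt, chr3:95434321-95434389, plus strand: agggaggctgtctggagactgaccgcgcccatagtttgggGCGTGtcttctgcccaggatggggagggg

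Ahrr held 3 matches, at 107, 82 and 27 bases before its start, and the other 4 genes held 1 each. The core stood 54 bases before the start in Cyp1a1, 76 in Cyp1b1, 170 in Tiparp and 29 in Arnt. A run of these 5 letters is common: 28.2% of the 32851 mouse promoters of the same length held at least 1. The longer motif TNGCGTG, searched on both strands and overlapping the core, was in 4.10% of promoters. Within the 250 bases searched, only Ahrr among these genes held it, once. Sequence farther before the starts was not searched. A match describes the letters of these windows and is not a measured binding site.

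Both MBP libraries lay above both controls for Arnt, with a mean of 110.9% of the control mean, and below both controls for Aldh3a1 (90.9%) and Cyp1a1 (76.1%), while the groups overlapped for Ahr and Tiparp. None of these differences passed the test. Over all tested genes, 21.3% were higher and 23.5% were lower in MBP without overlap of the groups. Ahrr and Cyp1b1 were close to absent from all 4 libraries. Genes entered the test with FPKM (fragments per kilobase of gene, scaled by the number of mapped reads) of at least 1 in at least 2 libraries, which kept 5 of the 7 genes. The test was limma's moderated test on log2(FPKM + 1) over all 12403 genes that passed this filter, and fold changes are on that scale, which understates the change of low genes. Of the 5 genes 0 reached an adjusted p under 0.05, and the background over all tested genes was likewise 0%. At an unadjusted p under 0.05 limma gave 1201 genes (9.68%), 473 higher (3.81%) and 728 lower (5.87%) in MBP. Of the 5 genes 0 were in the first set and 1, Aldh3a1, was in the second. This depended on the setting, and the 95% interval of Aldh3a1 held 0 in 11 of 15 alternatives, the GC and length correction among them. Scaled to TPM the split was 533 higher and 507 lower, and limma-voom on reads recovered from the FPKM values called 17 genes, 0 of them among the 5.

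The receptor itself did not separate the groups. Ahr (ENSMUSG00000019256, chromosome 12, 35497974 to 35535038, minus strand, GRCm38) had 10.01 and 10.3 FPKM in MBP libraries, against 10.4 and 10.2 FPKM in control libraries. The groups overlapped, and their means lay closer together than the libraries of either group. The log2 fold change was -0.02 (SE 0.0561, 95% interval -0.16 to 0.12, limma adjusted p = 0.913). These levels rested on 1478 and 1644 reads in MBP libraries and on 1563 and 1485 reads in control libraries.

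Arnt, the partner that the receptor needs to bind DNA (ENSMUSG00000015522, chromosome 3, 95434388 to 95497240, plus strand), had 10.4 and 10.2 FPKM in MBP libraries, against 9.65 and 8.97 FPKM in control libraries. Both MBP libraries lay above both controls, and control 2 was the lowest of the 4. The mean was 10.3 ± 0.13 FPKM in MBP libraries and 9.31 ± 0.483 FPKM in control libraries (SD, n = 2 each), so the controls varied more than the treated libraries. The log2 fold change was 0.14 (SE 0.0628, 95% interval -0.02 to 0.30, limma adjusted p = 0.532). A predicted gene on the same strand, Gm42672, lies inside the Arnt locus and had 13.6 and 13.2 FPKM in MBP libraries, against 13.0 and 10.6 FPKM in control libraries. How reads in the shared stretch were assigned is not given in the sources used here.

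Aldh3a1, an aldehyde dehydrogenase that detoxifies aromatic and lipid-derived aldehydes, was by far the most abundant of the 7 genes. It (ENSMUSG00000019102, chromosome 11, 61207537 to 61218421, plus strand) had 60.7 and 61.2 FPKM in MBP libraries, against 67.4 and 66.8 FPKM in control libraries. The groups did not overlap, and the libraries within each group lay close together, at 61.0 ± 0.348 FPKM in MBP libraries and 67.1 ± 0.436 FPKM in control libraries (SD, n = 2 each). The log2 fold change was -0.14 (SE 0.0503, 95% interval -0.26 to -0.01), with an unadjusted p of 0.0423, and limma's adjusted p of 0.512 did not pass. Among tested genes 8.22% had a lower unadjusted p. Aldh3a1 had the highest GC content of the 5 tested genes, 53.3% in its longest transcript, where the median of tested genes was 49.0%. Fold changes across the table followed GC content, with Spearman's rho of -0.442 over 12389 genes, which are not independent. After correction for GC content and length, Aldh3a1 stood at a log2 fold change of -0.06 (95% interval -0.19 to 0.06, limma adjusted p = 0.809).

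Cyp1a1, the cytochrome P450 whose induction is the classic readout of the receptor, was measured at a low level. It (ENSMUSG00000032315, chromosome 9, 57687928 to 57703824, plus strand) had 1.06 and 1.19 FPKM in MBP libraries, against 1.55 and 1.42 FPKM in control libraries. The groups did not overlap, and the MBP mean was 76.1% of the control mean. The values rested on 71 and 86 reads in MBP libraries, against 105 and 93 reads in control libraries. Exact 95% Poisson intervals, which cover counting error only, ran from 55.5 to 89.6 and from 68.8 to 106.2 reads in MBP libraries, and from 85.9 to 127.1 and from 75.1 to 113.9 reads in control libraries. The interval of each MBP library overlapped that of each control, which is no test of a difference between groups. Summed over libraries, the reads were 157 in MBP and 198 in control. The log2 fold change was -0.22 (SE 0.111, 95% interval -0.51 to 0.06, limma adjusted p = 0.551). Because the gene is low, its size depends on the pseudocount: with 0.01 in place of 1 the log2 fold change was -0.39 (95% interval -0.91 to 0.13, limma adjusted p = 0.563).

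GENCODE holds 2 Cyp1a1 transcripts, and the other starts 9685 bases after the first, at the RefSeq start before which the core in the printed window lies. The deposited value does not separate them. Cyp1a2, the sister gene that lies on the opposite strand 4225 bases from Cyp1a1 and is chiefly a liver enzyme, had 0 reads in each of the 4 libraries. That allows up to 3 reads a library.

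Tiparp, a mono-ADP-ribosyltransferase that restrains the receptor (ENSMUSG00000034640, chromosome 3, 65528410 to 65555518, plus strand), had 34.6 and 36.0 FPKM in MBP libraries, against 33.1 and 36.1 FPKM in control libraries. The control libraries enclosed both MBP libraries. The log2 fold change was 0.03 (SE 0.0654, 95% interval -0.14 to 0.20, limma adjusted p = 0.893), and its sign turned to -0.04 after the GC and length correction. A gene on the opposite strand, 4931440P22Rik, overlaps its first bases and had at most 0.677 FPKM.

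Ahrr and Cyp1b1 did not pass the filter, so they have no test. Ahrr, the repressor that competes with the receptor for ARNT (ENSMUSG00000021575, chromosome 13, 74211118 to 74292331, minus strand), had 2 and 2 reads in MBP libraries, against 6 and 0 reads in control libraries. The control with 0 reads allows up to 0.0135 FPKM, at 3 reads. Cyp1b1, which oxidizes polycyclic hydrocarbons and estradiol (ENSMUSG00000024087, chromosome 17, 79706953 to 79715041, minus strand), had 0 and 1 reads in MBP libraries, against 1 and 1 reads in control libraries. Cyp1b1 reads were counted over 5128 bases, its longest GENCODE transcript, since the table's coordinates differ from those of GENCODE for this gene. Exact Poisson intervals, at the level used for Cyp1a1, reached 7.2 reads for Ahrr in each MBP library. For Cyp1b1 they reached 3.7 and 5.6 reads in MBP libraries. A rise in MBP libraries well past these bounds would have been visible. A decrease or a small change was not detectable at these depths for either gene.

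**Figure D1:**
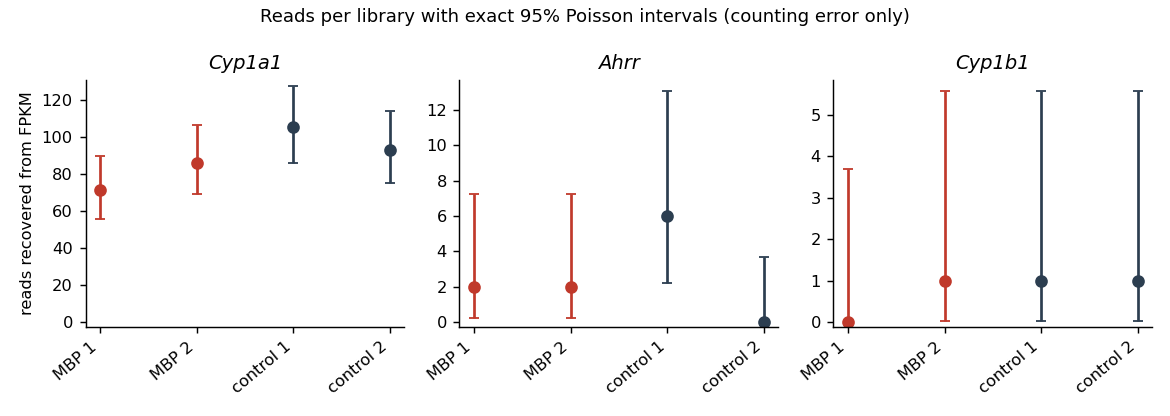
Reads recovered from FPKM for Cyp1a1, Ahrr and Cyp1b1 in each library, with exact 95% Poisson intervals for counting error. Cyp1a1 had 71 and 86 reads in MBP libraries, against 105 and 93 in controls, with overlapping intervals, and Ahrr and Cyp1b1 had at most 6 reads in any library.

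Of the 5 tested genes, 1 was higher and 2 were lower in MBP without overlap of the groups. Over all tested genes 21.3% were higher and 23.5% were lower without overlap, 44.8% together. The median log2 fold change was -0.02 over these 5 genes and -0.00477 over all tested genes.

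**Figure D2:**
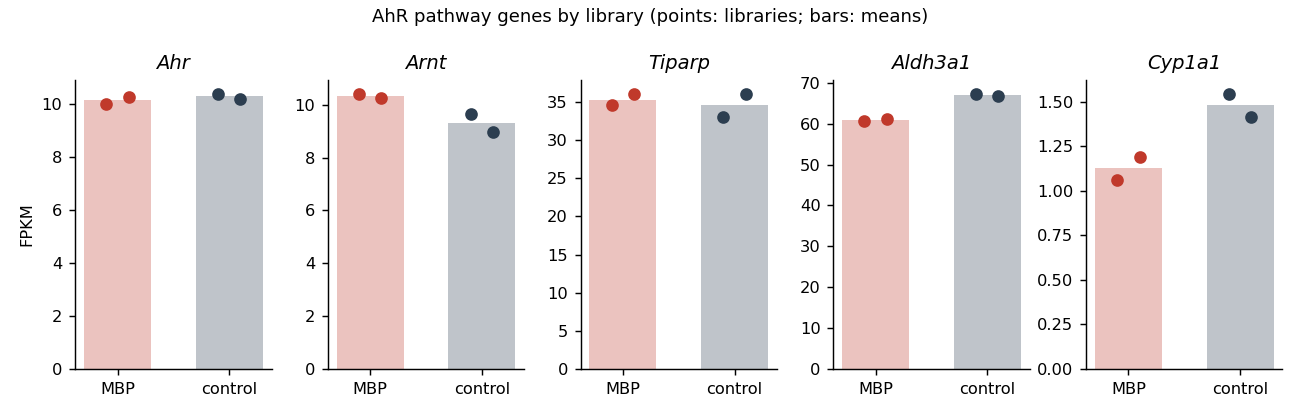
FPKM of the 5 tested genes by library, with points for libraries and bars for the means of MBP (left) and control (right), each axis starting at 0. Arnt was higher in both MBP libraries than in both controls, Aldh3a1 and Cyp1a1 were lower in both, and Ahr and Tiparp overlapped, none past limma's adjusted test.

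**Figure D3:**
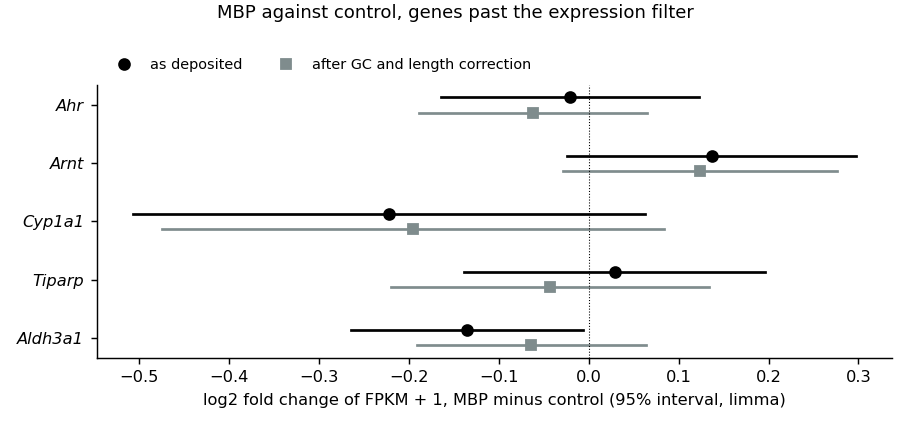
Log2 fold change of FPKM + 1, MBP minus control, with limma's 95% interval, for the deposited values (circles) and after correction for GC content and length (squares). Only the uncorrected interval of Aldh3a1 (-0.26 to -0.01) left out 0, and after correction it was -0.19 to 0.06.

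Within the group, levels per length of gene fell into steps. Aldh3a1 averaged 64.0 FPKM over the 4 libraries and stood above 98.0% of the genes in the table. Tiparp averaged 35.0 FPKM and stood above 95.1%. Ahr, at 10.2 FPKM, and Arnt, at 9.82 FPKM, were neighbours that changed places: Ahr was below Arnt in MBP 1 and above it in MBP 2 and both controls. Cyp1a1 averaged 1.30 FPKM, above 51.8% of genes. The 2 lowest, Ahrr at 0.0108 and Cyp1b1 at 0.00595 FPKM, overlapped and cannot be ranked. The other neighbours did not overlap in any library.

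Lists of genes around the receptor were read by their counts in the same fit. In each list 0 genes passed limma's test in either direction. Hsp90aa1, Hsp90ab1 and Ptges3, chaperones that hold the receptor in the cytosol, were well expressed. Hsp90aa1 had 139.4 and 139.7 FPKM in MBP libraries, against 141.0 and 138.1 FPKM in control libraries, and Hsp90ab1 had 655.9 and 619.2 FPKM in MBP libraries, against 648.1 and 668.8 FPKM in control libraries. Ptges3, the co-chaperone p23, stood at a log2 fold change of -0.09. The median of the 3 log2 fold changes was -0.05, and -0.03 after the GC and length correction.

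Of 13 other bHLH-PAS factors 6 were tested, with a median log2 fold change of 0.09, 5 of them positive and 3 higher in MBP without overlap. The background over all tested genes was 21.3% higher in MBP without overlap, with 51.6% negative, and the median of the 6 became 0.05 with the GC and length correction. Hif1a, the oxygen-regulated factor that also pairs with ARNT, had 42.2 and 43.3 FPKM in MBP libraries, against 38.9 and 39.4 FPKM in control libraries (log2 fold change 0.13, limma adjusted p = 0.517). Clock, a circadian factor, had 14.3 and 14.3 FPKM in MBP libraries, against 13.4 and 11.9 FPKM in control libraries. After the GC and length correction Hif1a stood at a log2 fold change of 0.06 and Clock at 0.05. Arntl2 and Arntl, partners of Clock, stood at log2 fold changes of 0.11 and 0.07. Arnt2, named here after its values were seen, is the relative of Arnt found mainly in nervous tissue and kidney. It was more abundant here than Arnt itself, at 16.2 and 16.5 FPKM in MBP libraries and 17.5 and 16.2 FPKM in control libraries. The 7 factors under the filter were Epas1, Hif3a, Sim1, Sim2, Npas1, Npas2 and Npas4, and the highest value among them was 1.01 FPKM, for Npas4 in MBP 1. Hif3a had 8 and 5 reads in MBP libraries and 0 and 0 reads in control libraries, a difference that was not tested. For Epas1, Sim1, Npas1, Npas2 and Npas4 the groups overlapped, and Sim2 had 0 reads in each library.

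The 7 coactivators had a median log2 fold change of 0.03, 5 of them positive. That sign was not kept: the median became -0.02, with 3 of the 7 positive, after the GC and length correction, and it was -0.0528 without control 2 and -0.00436 without MBP 1. Ncoa3, Smarca4, Med1 and Crebbp had the lowest unadjusted p, with log2 fold changes of 0.05, -0.06, 0.03 and 0.04. Limma's adjusted p for these 4 was 0.751 or higher.

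Of 12 further genes known as targets of the receptor in mouse or human, 11 were in the table and 4 were tested, and their log2 fold changes had a median of 0.09, which became 0.12 with the GC and length correction. With limma-voom on recovered reads, which tested 7 of them, the median was -0.03, and over all 11 without the filter it was -0.00634. Nqo1, a quinone reductase also driven by NRF2, had 23.7 and 28.8 FPKM in MBP libraries, against 24.2 and 29.3 FPKM in control libraries. The libraries of each group spanned nearly the same range. Cdkn1b, the cell cycle inhibitor p27, had 30.4 and 28.4 FPKM in MBP libraries, against 26.1 and 24.2 FPKM in control libraries, a log2 fold change of 0.22 (95% interval 0.05 to 0.39, limma adjusted p = 0.503). Slc7a5, an amino acid transporter, and Nfe2l2, the factor NRF2, stood at log2 fold changes of 0.09 and 0.09, and their groups overlapped. Under the filter lay Cyp1a2, Cyp2s1, Ugt1a6a, Ugt1a6b, Gsta2, Serpinb2 and Ereg, with at most 0.488 FPKM. Cyp2s1, a P450 outside family 1, had 23 and 21 reads in MBP libraries, against 30 and 28 reads in control libraries. Exons that Ugt1a6a shares with other genes of its locus make its value of 0.319 and 0.242 FPKM in MBP libraries, against 0.305 and 0.275 FPKM in control libraries, uncertain.

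RNA was scarce for enzymes that act on tryptophan or its products, some of which yield ligands of the receptor. Of 12 listed 9 were in the table and 0 passed the filter. Ido1, which opens the kynurenine route, had 1 and 0 reads in MBP libraries, against 0 and 0 reads in control libraries. Kyat1, a kynurenine aminotransferase, had 56 and 101 reads in MBP libraries, against 62 and 43 reads in control libraries. Il4i1, an amino acid oxidase that yields receptor ligands, had 83 and 96 reads in MBP libraries, against 111 and 70 reads in control libraries. The groups overlapped for both. Ido2, Afmid, Kyat3, Aadat, Haao and Qprt had at most 0.743 FPKM in any library.

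Apart from Cyb5a, RNA was abundant for the proteins that work with the P450 enzymes. Por, the reductase that passes electrons to them, had 79.0 and 79.9 FPKM in MBP libraries, against 79.6 and 83.6 FPKM in control libraries. Cyb5b, a cytochrome b5, had 59.3 and 63.7 FPKM in MBP libraries, against 56.0 and 56.2 FPKM in control libraries, without overlap (log2 fold change 0.13, limma adjusted p = 0.532). Cyb5a and Cyb5r3 stood at log2 fold changes of -0.08 and -0.05. The level of Cyb5a was 7.40 and 8.16 FPKM in MBP libraries, against 8.11 and 8.49 FPKM in control libraries. Over the 5 genes of this list the median log2 fold change was -0.04, and 0.05 after the correction.

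**Figure D4:**
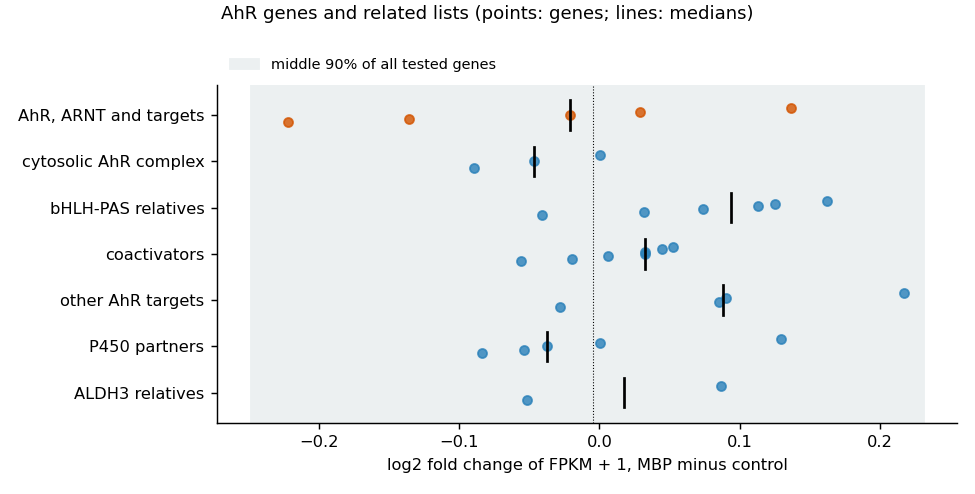
Log2 fold change of FPKM + 1, MBP minus control, for the tested genes of each list, with a line at each list's median and a shaded band for the middle 90% of the 12403 tested genes (-0.25 to 0.23). Every gene plotted lay within that band, Cyp1a1 at -0.22 and Cdkn1b at 0.22 nearest its edges.

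Library depth, from the step that 1 read is worth, was 23571000 to 25907000 reads. Of 10 defining astrocyte markers 3 passed the filter, S100b, Sox9 and Glul, while Gfap, Slc1a3, Slc1a2, Gja1, Aldh1l1, Aqp4 and Aldoc had at most 0.312 FPKM in any library, and Slc1a3 was at 0 in 3 of 4. The summed level of these 10 was 21.4 and 22.1 FPKM in MBP libraries, against 21.1 and 22.4 FPKM in control libraries. Of 13 markers of other brain cell types 10 were in the table, and their sum was 103 and 101 FPKM in MBP libraries, against 115 and 111 FPKM in control libraries. That sum came mostly from Sox10, a marker of the oligodendrocyte lineage, with 89.6 and 87.8 FPKM in MBP libraries, against 99.97 and 96.1 FPKM in control libraries. Tmem119, a microglial marker, had 4.47 and 5.05 FPKM in MBP libraries, against 5.50 and 5.92 FPKM in control libraries. Cx3cr1, another microglial marker and under the filter, went the other way, with 0.334 and 0.248 FPKM in MBP libraries, against 0.201 and 0.122 FPKM in control libraries. Pdgfrb, a pericyte marker, and Olig2, of the oligodendrocyte lineage, stood at log2 fold changes of -0.14 and -0.04. Syt1, Pecam1 and Col1a1 had at most 0.551 FPKM, Cldn5 was at 0 in all 4 libraries and Snap25 in 3. With the GC and length correction the log2 fold change of Sox10 was -0.04, against -0.14 without it, and the median of the 4 tested markers was -0.07, against -0.14. The sum was lower in both MBP libraries than in both controls, as were Aldh3a1 and Cyp1a1. Among all tested genes 23.5% were lower in MBP without overlap. From MBP 1 to MBP 2 the sum fell while both genes rose, and from control 1 to control 2 all of them fell. Each of these moves is between single libraries, and none was tested. The part of the sum in the values of these genes was not tested. These are bulk samples of an established line, and the markers do not show whether other cell types were present. Fewer cells that express a gene and less RNA per cell cannot be told apart.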

How the data were processed

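Total RNA of C8-D1A cells was depleted of ribosomal RNA and made into directional libraries, per the labels' protocols. HISAT2, bcl2fastq and GRCm38 are named in the submitters' processing notes. Their versions, the counter, the annotation and the use of strand were not given in the sources used here. Values in the deposited table were FPKM per gene, computed by the authors. Columns were matched to samples by title, and replicates were numbered in accession order, which pairs nothing.

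Values were tested as log2(FPKM + 1) in R 4.3.3 with limma 3.58.1 (linear fit and a moderated spread with a trend on the mean), two-sided, MBP minus control, with Benjamini-Hochberg adjustment over 12403 genes and a threshold of 0.05. The code of the fits was tried on simulated data. The changes planted there were larger than those of Ahr, Arnt, Cyp1a1, Tiparp and Aldh3a1, so the trial is no support for the results. Exon length, transcript length and GC content came from GENCODE mouse release 21, which held 24121 of the identifiers. In 6079 single-exon genes FPKM times exon length fell on multiples of 1 step per library, whole within 0.05 for at least 99.95% of values under 1000 reads. That step gave depth and reads per gene. The GC and length correction was a loess (span 0.5) per library. Limma-voom used genes with whole reads and a mean of at least 10.

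The genes and lists were chosen with earlier results of these data known, so no list was tested as a set and nothing already seen is independent support. All 7 genes are named whatever their value, and up to 4 tested genes of each list by lowest unadjusted p. Arnt2 was named in addition, after its values were seen. Other tested genes of the lists are counted and not named. A gene was left out of these lists and is not reported here. Genes of the lists under the filter are given by reads or FPKM. For likeness of pattern, the 3 protein-coding genes nearest to each tested gene are named. Alternatives were each library left out, the GC and length correction, limma-voom, protein-coding genes only, quantile normalization, TPM, scaling by the median of ratios, a spread with no trend, pseudocounts of 0.01 and 0.1, and the filter at 5 FPKM or omitted. Figures were drawn with matplotlib 3.10.9.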

Additional observations from a re-analysis of the deposited data

How the results depend on the processing

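The count of genes called by limma, 0, held in 14 of 15 alternatives, and limma-voom on recovered reads called 17. Of the 5 tested genes 0 were called in any of the 15. At an unadjusted p under 0.05 the protein-coding genes alone split into 332 higher and 831 lower, and all 12389 genes with a GC value into 412 higher and 446 lower after the GC and length correction. Ahr, Arnt, Aldh3a1 and Cyp1a1 kept the sign of their log2 fold change in every alternative that tested them (the filter of 5 leaves out Cyp1a1). Arnt ran from 0.09 without control 2 to 0.18 without control 1, Aldh3a1 from -0.14 without control 2 to -0.06 after the GC and length correction, and Cyp1a1 from -0.39 with limma-voom to -0.18 without MBP 1. The 95% interval of Aldh3a1 left out 0 with pseudocounts of 0.1 and 0.01, without the filter and without control 2. That of Cyp1a1 left it out with no spread trend (-0.41 to -0.04) and on protein-coding genes (-0.42 to -0.02), and that of Arnt without control 1 (0.01 to 0.36). Tiparp changed sign: it ran from -0.0331 (without control 1) to 0.0909 (without control 2) when single libraries were left out, was -9.97e-05 without MBP 2, and stood at -0.0432 after the GC and length correction. The cause was not tested. Of 120 list medians recomputed over 8 lists, 25 moved by more than the spread between libraries. Depth limits the detection of a decrease or a small change for Ahrr and Cyp1b1, which had at most 6 reads a library. For Cyp1a1, with 157 reads summed over MBP libraries and 198 over controls, the overlap of single-library intervals does not show such a limit. No paired analysis was made because the labels do not say that any treated library belongs with a control.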

Other observations

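Aldh3a1 and its neighbour Aldh3a2, the fatty aldehyde dehydrogenase, lie 4996 bases apart on opposite strands of chromosome 11. Aldh3a2 had 7.88 and 8.04 FPKM in MBP libraries, against 7.62 and 7.25 FPKM in control libraries, a log2 fold change of 0.09 (95% interval -0.07 to 0.24, limma adjusted p = 0.642). The ratio of Aldh3a1 to Aldh3a2 was 7.71 and 7.61 in MBP libraries, against 8.84 and 9.21 in control libraries, with no overlap. Aldh3b1, a relative of the same family, had 9.53 and 10.1 FPKM in MBP libraries, against 10.1 and 10.4 FPKM in control libraries, and Aldh3b2 had 1 read in control 1 and 0 in the other 3 libraries. The ratio of Arnt2 to Arnt was 1.56 and 1.61 in MBP libraries, against 1.82 and 1.81 in control libraries. These ratios were chosen after the values were seen and were not tested.

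Likeness of pattern was measured over the 4 libraries, from log2(FPKM + 1) centred per gene, as the root mean square distance, among 10070 protein-coding genes. Nearest to Ahr were Polr3e, Ddx31 and Sft2d2, at 0.00445 to 0.00485. Nearest to Arnt were Mtbp, Akap10 and Cep120, at 0.00439 to 0.00526. Nearest to Aldh3a1 were Rpia, Tmem201 and Pfdn6, at 0.00153 to 0.00733, and nearest to Tiparp were Ncs1, Rbmx2 and Fam110b, at 0.00281 to 0.00469. Nearest to Cyp1a1 were Tmem41a, Aoc1 and Apol9a, at 0.0143 to 0.0152. With 4 libraries such likeness is common: 2627 genes lay within 0.05 of Ahr, 1366 of Arnt, 1357 of Aldh3a1, 1650 of Tiparp and 236 of Cyp1a1.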
